A study of Danio rerio with 2 samples.

Results

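The BTG and TOB genes encode small adaptor proteins of mRNA deadenylation. The group examined here comprised every row of the deposited gene table whose name was btg1, btg2, btg3, btg4, tob1a, tob1b or tob2 in any letter case, which gave 7 of 32571 rows, 1 for each name. The gene of the last name is written TOB2 in the table. All 7 rows had passed the authors' filter for testing, so no gene of the group was lost to low values. RNA was measured by sequencing in whole zebrafish embryos of the AB strain, from natural matings, at 6 hpf (hours post fertilization), when gastrulation begins. One group was mock-injected and served as the control. The other was injected with Dcp2DN, understood as a dominant-negative Dcp2. Dcp2 is the enzyme that removes the mRNA cap, and inhibition of Dcp2 is the purpose given in the series title. Strain, stage, RNA extraction from pools of 40 to 50 embryos and ribosomal RNA removal were common to both groups, and the injected dose was not given in the sources used here.

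Proteins of this family share an amino-terminal BTG/TOB domain that binds the CNOT7 and CNOT8 deadenylases of the CCR4-NOT complex. Deadenylation shortens the poly(A) tail and usually comes before decapping by Dcp2, so these adaptors act upstream of the step that was inhibited. TOB proteins additionally carry motifs that bind cytoplasmic poly(A)-binding protein, and BTG4 is known in the mouse as an oocyte and egg factor required for clearing maternal mRNA. Whether their own mRNAs differed in level when Dcp2 was inhibited is the comparison described below.

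The table held 1 FPKM value (fragments mapped to a transcript, scaled to its length and to the number of mapped fragments) per gene and group, so no value below carries an SD or n, and library depth was unknown. The design text names 3 replicates per group, and whether all of them entered the authors' Cuffdiff test, and whether they came from separate clutches, was not given. The spread behind its p-values may therefore be technical. A call means that the authors' deposited table marks the gene as significant, that is, tested and with q under 0.05. Ratios of Dcp2-DN over mock are given on the log2 scale with 0.1 FPKM added to each value, and their median was 0.12 over the 15457 rows whose 2-group mean reached 1 FPKM. Of 2 gene models named dcp2, ENSDARG00000039016 was at 13.9 and 16.7 FPKM in mock and Dcp2-DN embryos, and ENSDARG00000089419 at 0.0398 FPKM in mock embryos and 212 FPKM after Dcp2-DN injection. Neither was called, with q = 0.109 for the first and q = 0.303 for the second in the authors' deposited table. The 11 rows of gastrula markers lay between 35.8 and 917 FPKM in mock and between 46.6 and 688 FPKM in Dcp2-DN embryos, whereas none of the 9 rows for genes of later tissues exceeded 2.11 FPKM.

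All 7 genes rose in Dcp2-DN embryos. The authors' deposited table called each of them, 7 of 7 for a rise and 0 for a fall, whereas 20.6% of its 14810 tested genes were called for a rise and 4.35% for a fall. Each of the 7 had p = 5e-05 and q = 0.000593, the lowest values in the authors' deposited table. Of all tested genes, 7.89% were higher at that p. Since the p-values of the 7 are tied at the floor of the test, the genes are told apart here by the size of the change and not by p. One gene stood apart in size, btg4 at 5.02-fold, while the other 6 lay between 1.38-fold and 1.65-fold. A rise of at least 1.5-fold was reached by 4 of the 7, and 11.9% of all tested genes in the authors' deposited table were called for a rise of that size. A rise or fall here is a difference in level between the 2 groups at 6 hpf. Synthesis and decay of the mRNAs were not measured, so their parts in such a difference cannot be told apart. In RNA from whole embryos, more cells that contain a transcript and more transcript per cell cannot be told apart either. Of the 11 gastrula marker rows, 2 had a call for a rise and 3 for a fall in the authors' deposited table, among them mxtx2, a gene of the yolk syncytial layer, at 2.62-fold higher, and krt4, a keratin gene of the enveloping layer, which fell from 917 to 688 FPKM. The remaining 6 marker rows had no call. Each of these embryo layers is named here from a single gene. The part of these embryo layers in the changes of the BTG and TOB genes was not tested.

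**Figure D1:**
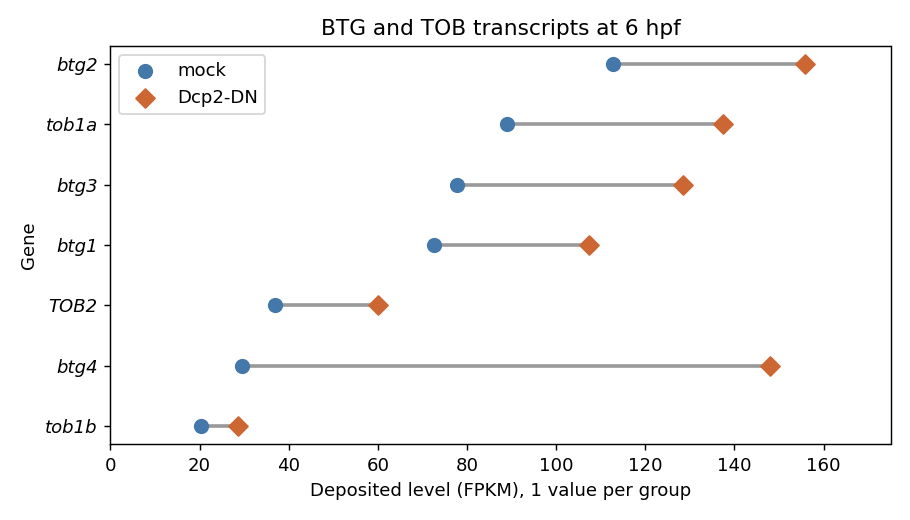
Deposited level of each of the 7 genes (horizontal axis, FPKM, linear, 1 value per group) in mock (circles) and Dcp2-DN embryos (diamonds), ordered by the mock level. Every diamond lies to the right of its circle, and the line of btg4 runs from 29.5 to 148 FPKM.

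The oocyte and egg member btg4 (ENSDARG00000035171, chromosome 5, 59273721 to 59275804 in the Zv9 coordinates of the authors' file) had the widest change. Its level was 29.5 FPKM in mock embryos and 148 FPKM after Dcp2-DN injection. This is a log2 ratio of 2.32, or 2.21 above the median of all genes. By fold it ranked 12 among the 3051 genes with a called rise in the authors' deposited table, and 33 of the 14810 tested genes, itself included, had a log2 ratio as large (0.223%). Among the 7 genes btg4 was the sixth by level in mock embryos and the second in Dcp2-DN embryos. The most abundant gene of the group, btg2, stood 3.83 times above btg4 in mock and 1.05 times above it in Dcp2-DN embryos. Without a spread per group, the order of neighbouring levels could not be tested.

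Among the paralogs btg1 and btg2, whose mammalian products restrain cell proliferation, the mock levels were higher than that of btg4 and the changes smaller. btg2 (ENSDARG00000020298, chromosome 22, in a shared locus at 745664 to 789091) is a p53 target and immediate early gene in mammals. It went from 113 FPKM in mock to 156 FPKM in Dcp2-DN embryos. This was the smallest fold of the group, 1.38, with a log2 ratio of 0.47. btg1 (ENSDARG00000027249, chromosome 4, 15604356 to 15613269) was at 72.6 FPKM in mock embryos and 107 FPKM after Dcp2-DN injection, 1.48-fold higher. A ratio at least as large as that of btg2 was present in 21.5% of tested genes, and one at least as large as that of btg1 in 16.3%. Changes of this size were thus common among all tested genes. At the levels of btg1 and btg2 called rises were less frequent than the 20.6% of all tested genes. By the mean of both groups, the share was 16.4% at 50 to 100 FPKM, where btg1 lay, and 10.4% at 100 to 200 FPKM, where btg2 lay.

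The next in fold after btg4 was btg3 (ENSDARG00000069065, chromosome 10, 29052596 to 29062709), known in mammals as ANA and as an antiproliferative gene. It was at 77.8 FPKM in mock embryos and 128 FPKM after Dcp2-DN injection, 1.65-fold higher, with a log2 ratio of 0.72. Of all tested genes, 9.62% had a ratio at least that large.

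The TOB genes, which encode the longer proteins of the family, all lay within the same narrow range of folds. tob1a (ENSDARG00000032619, chromosome 3, in a shared locus at 17914555 to 18021145) encodes a product known in zebrafish to restrain beta-catenin in dorsal development. It was at 89.1 FPKM in mock embryos and 137 FPKM after Dcp2-DN injection, or 1.54-fold higher. Its paralog tob1b (ENSDARG00000021372, chromosome 12, 1044227 to 1047498) was the least abundant of the 7 in both groups, at 20.2 and 28.6 FPKM, or 1.41-fold higher. TOB2 (ENSDARG00000074195, chromosome 3, 5677204 to 5678356) went from 37 to 60.1 FPKM, 1.62-fold higher. The name table used here gives tob2 under a different gene ID, so this row is taken as tob2 from the deposited symbol alone. The log2 ratios of tob1a, tob1b and TOB2 were 0.63, 0.50 and 0.70. The paralogs tob1a and tob1b thus differed more in level than in fold. How the authors' counting treated reads that match both paralogs was not given in the sources used here.

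**Figure D2:**
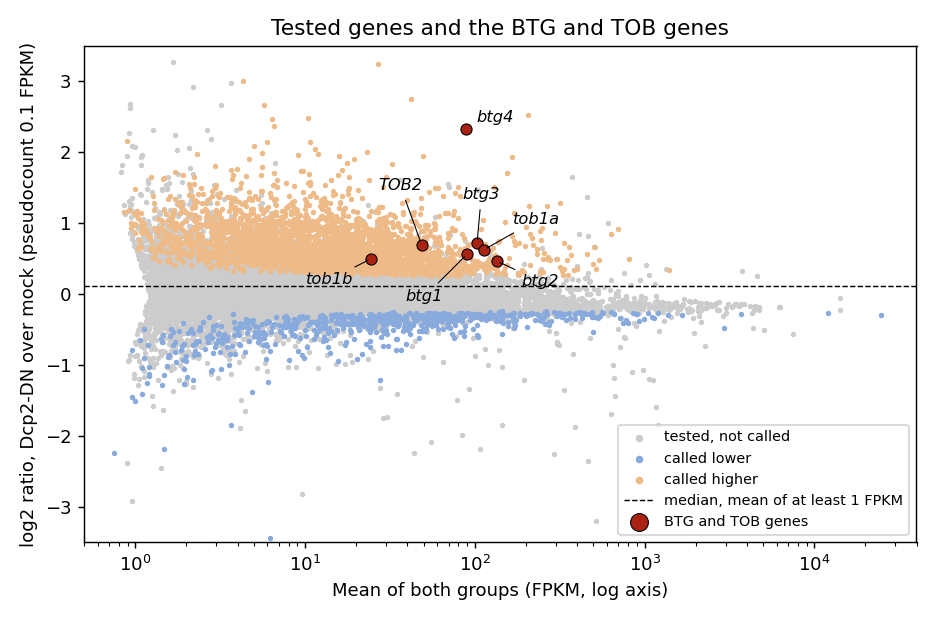
Log2 ratio of Dcp2-DN over mock (vertical axis, 0.1 FPKM added to each value) against the mean of both groups (horizontal axis, FPKM, log scale) for the tested genes, coloured by the authors' call, with the 7 BTG and TOB genes in red and a dashed line at the median of all genes averaging 1 FPKM or more. All 7 lie above the dashed line at 0.12, btg4 at 2.32, and 28 tested genes fall outside the axes.

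The share of genes with a called rise varied with level and was highest in the middle of the range. Among tested genes averaging 1 to 5 FPKM, 14.9% had a called rise in the authors' deposited table, and the share was 25.8% at 5 to 10 FPKM and 29.3% at 10 to 20 FPKM. At 20 to 50 FPKM, where tob1b and TOB2 lay, the share with a called rise in the authors' deposited table was 23.8%. At 50 to 100 FPKM, the level of btg1 and btg4, it was 16.4%. At 100 to 200 FPKM, which held btg2, btg3 and tob1a, it was 10.4%. The median log2 ratio was 0.10 in the range from 20 FPKM, 0.0022 in that from 50 FPKM and -0.080 in that from 100 FPKM, and the ratio of each BTG or TOB gene lay above the median of its own range.

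Taken as a sum, the 7 genes held 439 FPKM in mock embryos and 766 FPKM after Dcp2-DN injection, 1.75 times as much. Of this increase of 327 FPKM, 36.2% was that of btg4. Without btg4 the sum of the other 6 went from 409 to 618 FPKM, a ratio of 1.51. FPKM is scaled by transcript length, so these shares compare levels between genes. In mock embryos btg4 made up 6.71% of the sum, and after Dcp2-DN injection 19.3%. The shares of the other 6 genes were all smaller in Dcp2-DN than in mock embryos, although the level of each was higher. That of btg2 went from 25.7% to 20.4% and that of tob1a from 20.3% to 18.0%.

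**Figure D3:**
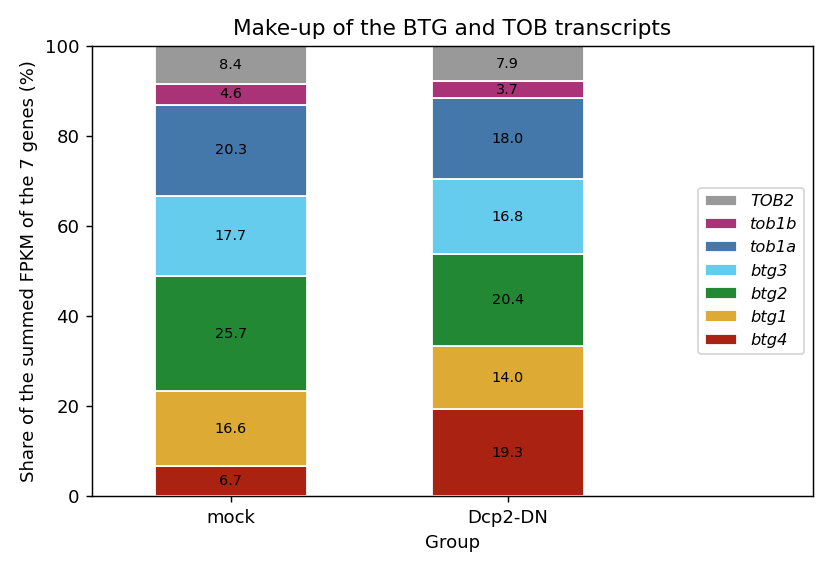
Share of each gene in the summed FPKM of the 7 BTG and TOB genes (vertical axis, percent) in mock and Dcp2-DN embryos, with each share printed in its segment. The segment of btg4 grows from 6.71% to 19.3%, and those of the other 6 genes shrink.

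The genes with the nearest pair of levels were found for each of the 7, as the 3 called genes with the smallest distance on the log2 scale of both groups. With only 2 groups, this likeness rests on 2 values per gene. For btg4 they were RPAIN (41.4 and 119 FPKM in mock and Dcp2-DN embryos), zgc:64022 (41.5 and 111 FPKM) and zar1l (44.9 and 118 FPKM), a gene of the oocyte. These lay 0.58 to 0.69 log2 units from btg4, while the 3 nearest lay at most 0.14 away for each of the other 6 genes. Those of btg2 were elovl6l, cnot8 and csrnp1b, those of btg1 were phc2a, eif1axa and sox19b, and those of btg3 were rras, si:dkey-261j4.5 and org. Those of tob1b were stil, idh3a and ptenb, those of TOB2 were lsm12a, nus1 and jun, and those of tob1a were aktip, si:dkey-261j4.5 and the clone-named gene ENSDARG00000088946.

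The 7 genes lie apart in the genome, on 6 chromosomes, with tob1a and TOB2 both on chromosome 3. The nearest tested gene on each side of each locus gave 14 neighbours, of which the authors' deposited table called 2 for a rise and 0 for a fall, beside 20.6% and 4.35% of all tested genes. The neighbours with a rise were zgc:153675 beside btg2 (31.8 to 62.2 FPKM, 1.95-fold) and tefb, a PAR bZIP transcription factor gene, beside TOB2 (10.7 to 16.7 FPKM, 1.56-fold). On either side of btg4, ppp2r1a (78.2 and 65.4 FPKM) and prpf4 (2.94 and 1.99 FPKM) were not called in the authors' deposited table. These lie 126514 and 287548 bp from btg4, and any untested rows between were skipped. In the file, btg2 and cry2b share 1 locus, with cry2b at 6.87 FPKM in mock embryos and 9.18 FPKM after Dcp2-DN injection. The locus of tob1a was shared with 3 rows, of which the highest, si:ch211-261n9.2, was at 4.97 and 4.32 FPKM. The coordinates given above for btg2 and tob1a are those of the shared loci and not of the genes alone. Reads of such loci may be divided between genes in counting, and the partners were at levels far below those of btg2 and tob1a.

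Genes of the CCR4-NOT complex, to which the adaptors bind, rose in part. The authors' deposited table had a called rise for 5 of 14 tested rows (35.7%, beside 20.6% of all tested genes) and a called fall for 0, and the list's median log2 ratio was 0.20 beside 0.12 for all genes. The direct partners of the BTG/TOB domain both rose. The deadenylase gene cnot7 went from 4.55 to 7.998 FPKM (1.76-fold) and its paralog cnot8 from 111 to 150 FPKM (1.35-fold), each with q = 0.000593 in the authors' deposited table. The second deadenylase of the complex is encoded by CNOT6 genes, of which CNOT6 (2 of 2) rose from 18.0 to 28.6 FPKM (1.59-fold). cnot6, at 141 and 160 FPKM, and cnot6l, at 6.11 and 10.1 FPKM, were not called in the authors' deposited table. A grouping into deadenylase and other subunits was made after the values were seen. In it, 3 of 5 deadenylase rows and 2 of 9 other subunit rows had a called rise in the authors' deposited table. The share of all tested genes was 20.6%. The called rows among the other subunits were cnot3b (20.4 to 27.4 FPKM) and CNOT4 (1 of 2), from 15.1 to 19.3 FPKM. The uncalled cnot6l was 1.65-fold higher, with a Cuffdiff q of 0.0561. Since the grouping came from these same values, it cannot show a difference between the kinds of subunit.

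The remaining rows of the CCR4-NOT list were without a call. The central scaffold gene cnot1 was at 75.5 and 70.4 FPKM in mock and Dcp2-DN embryos, CNOT2 at 81.2 and 83.7 FPKM, and cnot3a at 42.7 and 42.4 FPKM. rqcd1, also named cnot9, was at 45.5 and 52.7 FPKM. cnot10 was at 31.3 and 34.4 FPKM, cnot11 at 15.2 and 14.6 FPKM, and CNOT4 (2 of 2) at 44.6 and 46.1 FPKM. The row of tnks1bp1, at 0.512 and 0.572 FPKM, was not tested by the authors. A missing call does not show that these levels were the same, since no interval could be computed.

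Among deadenylases outside the CCR4-NOT complex, 0 of 8 tested rows had a call in either direction in the authors' deposited table, and 0 had an unadjusted Cuffdiff p under 0.05, beside called rises in 20.6% and called falls in 4.35% of all tested genes. The list held pan2 (17.6 and 17.0 FPKM), pan3 (33.3 and 34.3 FPKM) and parn (71.3 and 75.2 FPKM), and its median log2 ratio was 0.053. Of 7 tested genes of poly(A)-binding proteins and their partners, 3 had a called rise and 0 a called fall in the authors' deposited table, beside the same 20.6% and 4.35%. They were pabpn1l, an egg relative of the nuclear poly(A)-binding protein gene (50.9 to 108 FPKM, 2.11-fold), paip1 (13.2 to 23.8 FPKM, 1.81-fold), whose product binds poly(A)-binding protein in translation, and pabpc1l, the embryonic poly(A)-binding protein gene (25.6 to 39.1 FPKM, 1.53-fold). The general cytoplasmic poly(A)-binding protein gene pabpc1a, at 670 and 549 FPKM, was not called. The median log2 ratio of this list was 0.054, and 0.33 over its members averaging 10 FPKM or more.

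RNA-binding proteins that bring deadenylases to chosen mRNAs, some of them known in mammals to bind TOB, had a called rise in 5 of 15 tested rows and a called fall in 0 in the authors' deposited table, beside 20.6% and 4.35% of all tested genes. Over the 16 rows averaging 1 FPKM or more, which include an untested row, the list's median log2 ratio was 0.13, beside 0.12 for all genes. This median depended on the rows used and was 0.23 with no filter. Leading the rises were zfp36l2, whose product binds AU-rich elements (16.8 to 39.7 FPKM, 2.36-fold), and nanos3, a germ cell gene (15.5 to 25.2 FPKM, 1.63-fold).

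Lists that share the known roles of btg4 and btg2 were described beside these, and their counts stand against called rises in 20.6% and called falls in 4.35% of all tested genes. Like the other lists, they were chosen with earlier results of these data known. Their counts are therefore descriptive only and cannot show that these classes of gene respond. Of 20 oocyte and egg genes, 13 had a called rise and 0 a called fall in the authors' deposited table, with a median log2 ratio of 0.50. The called rises were led by the germ plasm carbonic anhydrase gene ca15b (3.28-fold) and the nucleoplasmin gene npm2a (8.68 to 27.4 FPKM, 3.16-fold). Both were below the 5.02-fold of btg4. The 7 rows of the list without a call included zar1 (13.8 and 14.6 FPKM) and NPM2 (60.0 and 61.4 FPKM). The list was broad and also held general cell cycle genes such as ccnb1 and plk1. Of 18 tested p53 pathway genes, 10 had a called rise and 0 a called fall in the authors' deposited table, with a median of 0.57, led by gadd45aa (2.87-fold) and cdkn1a (2.01-fold). Of 17 tested immediate early genes, which respond quickly to stimuli, 9 had a called rise and 0 a called fall in the authors' deposited table, with a median of 0.36, led by atf3 (2.25-fold) and fos (7.35 to 15.1 FPKM, 2.05-fold). The fold of btg2, 1.38, was below those of the leading genes of both lists, which were picked as the widest rises. Its log2 ratio, 0.47, lay below the median of the p53 list and above that of the immediate early list. The median log2 ratio of the 7 BTG and TOB genes was 0.63, and 0.59 over the 6 without btg4. Differences between lists were not tested.

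**Figure D4:**
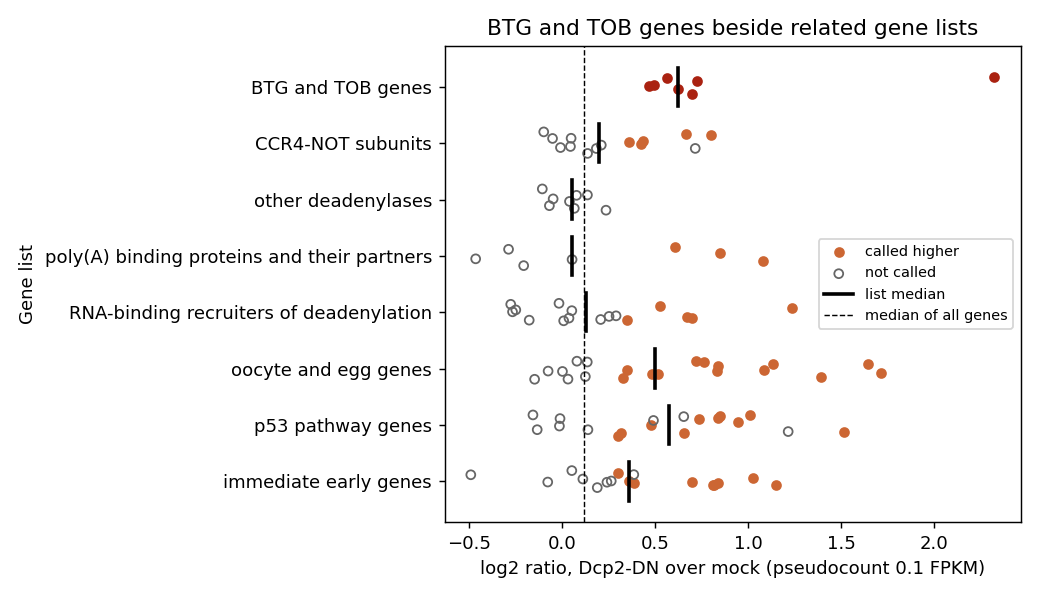
Log2 ratio of Dcp2-DN over mock (horizontal axis, 0.1 FPKM added to each value) of the 7 BTG and TOB genes and of list members averaging 1 FPKM or more, filled where the authors called the gene higher and open where they did not call it, with list medians as bars and the median of all genes as a dashed line. The BTG and TOB median is 0.63, and that of the CCR4-NOT subunits is 0.20.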

How the data were processed

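Total RNA of whole embryos was sequenced after ribosomal RNA removal with a stranded kit, per the labels' protocols. TopHat 1.4.0, Cuffdiff 2.1.1 and the assembly Zv9 (danRer7) come from the submitters' processing notes. No source used here gives the annotation release, library scaling or strand setting. The deposited table holds, per the file headers, an FPKM value for each gene in each group and a Cuffdiff p-value and q-value for each gene. Depth and the spread between replicates were not available from these values, so no test beyond the authors' own was run. Groups followed the sample titles. The rows name them mockB and DCP2.

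Benjamini-Hochberg adjustment of the deposited p-values over the 14810 tested rows returned the deposited q-values to within 5.2e-07. Log2 ratios used a pseudocount of 0.1 FPKM, which understates changes of low genes; folds are plain FPKM ratios. List medians used rows averaging 1 FPKM or more. Names were matched in any letter case, ignoring copy suffixes such as (1 of 2). Of the 7 gene IDs, 6 were in the name table used here; that of TOB2 was not, and the table gives tob2 another ID. Named genes were the 7, the 3 called genes nearest to each and the 2 widest called rises per list. The CCR4-NOT members, dcp2 and genes of shared loci were named as well. The next tested genes along the chromosome were added afterwards. Named outside these rules were pan2, pan3, parn, pabpc1l, pabpc1a, zar1, NPM2, ccnb1, plk1, mxtx2 and krt4. The genes and lists were chosen with earlier results of these data known. Counting was tested on simulated data. Python 3.11.15, NumPy 2.4.6, pandas 2.3.3, SciPy 1.17.1 and matplotlib 3.10.9 were used.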

Additional observations from a re-analysis of the deposited data

How the results depend on the processing

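The log2 ratios of the 7 genes stayed above 0 under 5 alternatives: a pseudocount of 0.01 or 1 FPKM, equal summed FPKM in both groups, and centring on the median of all genes or of 80 ribosomal protein genes (median -0.22). They ranged from 2.21 to 2.55 for btg4 and from 0.35 to 0.69 for btg2, the lowest of the 7. The pseudocounts could not change a sign at these levels, and equal summed FPKM and ribosomal centring raised every ratio. Centring on the median of all genes gave the lowest value of each gene. The count of 7 called higher was the same at q under 0.01 and at an unadjusted p under 0.05. Both outcomes were fixed in advance, since all 7 had the lowest p and q. The count was 4 with a fold of at least 1.5, beside 11.9% of all tested genes called for such a rise. btg1, tob1b and btg2 do not reach that fold. The share of btg4 in the sum did not depend on whether untested rows entered, since all 7 were tested. At the same fold, 2 of 14 tested CCR4-NOT rows and 3 of 15 tested rows of the RNA-binding recruiters were called higher, beside the same 11.9%. The median log2 ratio of the poly(A)-binding list was 0.33 over members averaging 10 FPKM or more, and that of the recruiters was 0.23 with no filter. No replicate could be left out and no paired analysis was possible because the table holds 1 value per group. Unknown depth limits the precision of every level.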
